A study of Mus musculus with 12 samples.

Results

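The TNF and death receptor family was read here through 10 mouse genes, 4 ligands (Tnf, Tnfsf14, Tnfsf9 and Tnfsf10) and 6 receptors (Tnfrsf1a, Tnfrsf10b, Fas, Tnfrsf1b, Cd40 and Tnfrsf12a). They were chosen by symbol from the 54674 entries of the authors' expression matrix, and 9 of the 10 could be tested, having reached 1 FPKM in 3 or more of the 12 libraries. FPKM scales the fragments of a gene by its length and by the fragments mapped in that library, so levels of different genes can be set side by side. RNA had been sequenced from mouse samples labelled Ly6C tumor, Ly6C spleen, Ly6G tumor and Ly6G spleen, with 3 libraries per group. The study compared polymorphonuclear with monocytic myeloid-derived suppressor cells (MDSCs), immature myeloid cells that accumulate in tumor-bearing hosts and restrain T cells. In mice the polymorphonuclear kind is usually identified by Ly6G and the monocytic kind by high Ly6C without Ly6G, but the labels name only the marker, the tissue and a number. The sources used here do not give strain, age, tumor line, sort or any treatment. Nothing in the labels ties a library to an animal, so p-values measure only the spread between these libraries, which may be technical.

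TNF superfamily ligands are trimeric proteins, mostly anchored in the membrane of immune cells, that cluster their receptors on target cells. Receptors with a death domain (Tnfrsf1a, Fas and Tnfrsf10b in this set) can assemble caspase-activating complexes. Receptors without one (Tnfrsf1b, Cd40 and Tnfrsf12a) recruit TRAF adaptors directly and activate NF-kappaB. In myeloid cells TNF is an early product of inflammatory activation, and signalling through its receptors has been tied to MDSC survival and suppressive function in mice.

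The libraries differed widely in cell markers, which touches every tumor against spleen comparison below. Ly6g averaged 13 FPKM in Ly6C tumor and 39.1 FPKM in Ly6G tumor libraries, and 166 FPKM in Ly6C spleen and 651 FPKM in Ly6G spleen libraries, so it was higher under the Ly6G label in both tissues (adjusted p = 0.00252 in tumor and 0.000155 in spleen). Ly6c2 did not separate the labels, with 7.05 FPKM in Ly6C tumor against 6.69 FPKM in Ly6G tumor, and 247 FPKM in Ly6C spleen against 214 FPKM in Ly6G spleen. Some other monocyte markers did, fewer of them in tumor than in spleen. Of a list of 8 that includes Ly6c2, 4 were higher and 0 lower in Ly6C than in Ly6G spleen (limma adjusted p under 0.05). All genes tested gave 22.1% and 8.59% there. In tumor 1 of the 8 was higher and 0 lower, beside 5.80% and 8.70% of all genes tested. The geometric mean of 20 pan-leukocyte genes was 8.39 ± 2.64 FPKM in Ly6C tumor against 98.6 ± 4.52 FPKM in Ly6C spleen, and 15.8 ± 3.98 FPKM in Ly6G tumor against 85.7 ± 4.07 FPKM in Ly6G spleen (SD, n = 3 each). The summed level of 8 epithelial markers ranged from 753 to 1020 FPKM in Ly6C tumor against 0.574 to 0.774 FPKM in Ly6C spleen, and from 446 to 752 FPKM in Ly6G tumor against 1.18 to 1.89 FPKM in Ly6G spleen. Krt8 and Krt18 carried it, only these 2 of the 8 passed the expression filter, and Epcam was at 0 in the Ly6C tumor libraries. The summed level of 9 fibroblast markers ranged from 214 to 391 FPKM in Ly6C tumor against 6.28 to 13.2 FPKM in Ly6C spleen. It ranged from 154 to 375 FPKM in Ly6G tumor against 8.25 to 9.10 FPKM in Ly6G spleen. Col3a1 carried most of the tumor sums, averaging 236 FPKM in Ly6C tumor and 167 FPKM in Ly6G tumor. Thy1, of the same list, was not called higher in tumor under either label. Markers of B cells, 8 genes, summed to 4.91 to 6.46 FPKM in Ly6C tumor against 114 to 175 FPKM in Ly6C spleen, and to 4.33 to 5.27 FPKM in Ly6G tumor against 337 to 682 FPKM in Ly6G spleen. Neutrophil markers, 10 genes including Ly6g, summed to 1380 to 2620 FPKM in Ly6C tumor against 65000 to 102000 FPKM in Ly6C spleen. They summed to 4270 to 8510 FPKM in Ly6G tumor against 126000 to 160000 FPKM in Ly6G spleen. S100a8 and S100a9 carried most of these sums. Of the 10, 0 were higher and 5 lower in Ly6C than in Ly6G spleen, beside 22.1% and 8.59% of all genes tested. In such bulk libraries fewer cells of a type and less RNA per cell cannot be told apart. The part of these markers in the results was not tested. Ly6C spleen replicate 2 stood apart from its group, with a summed level of 8 monocyte markers of 654 FPKM against 417 and 345 FPKM in replicates 1 and 3. The share of FPKM from mitochondrial genes reached its highest values in replicate 3 of Ly6G tumor (11.9%) and replicate 3 of Ly6C tumor (7.84%).

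Differences were tested with limma on log2(FPKM + 1), a scale that understates the change of low genes, and a gene was called at a Benjamini-Hochberg adjusted p under 0.05 over the 13610 genes tested. Between Ly6C tumor and Ly6C spleen, 3 of the 9 tested members were called higher and 3 lower in tumor, beside 46.2% and 30.5% of all genes tested. Between Ly6G tumor and Ly6G spleen, 5 members were called higher and 3 lower, beside 51.5% and 24.7% of all genes. The median change of the members was -0.28 for Ly6C and 0.67 for Ly6G, against 0.27 and 0.43 for all genes tested. With so many genes called, a member's direction and size say more than its call. Tnfsf9, Tnfrsf10b and Tnfrsf12a were higher in tumor under both labels, Tnfsf14 and Tnfrsf1a were lower under both, and Tnf was lower in Ly6C tumor but higher in Ly6G tumor. The lower directions hold per mapped fragment. When each library was rescaled to its pan-leukocyte genes instead, the median change of all genes tested moved to 2.98 for Ly6C and 2.14 for Ly6G, and Tnf in Ly6C and Tnfsf14 and Tnfrsf1a under both labels became higher in tumor, though by less than that median.

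**Figure D1:**
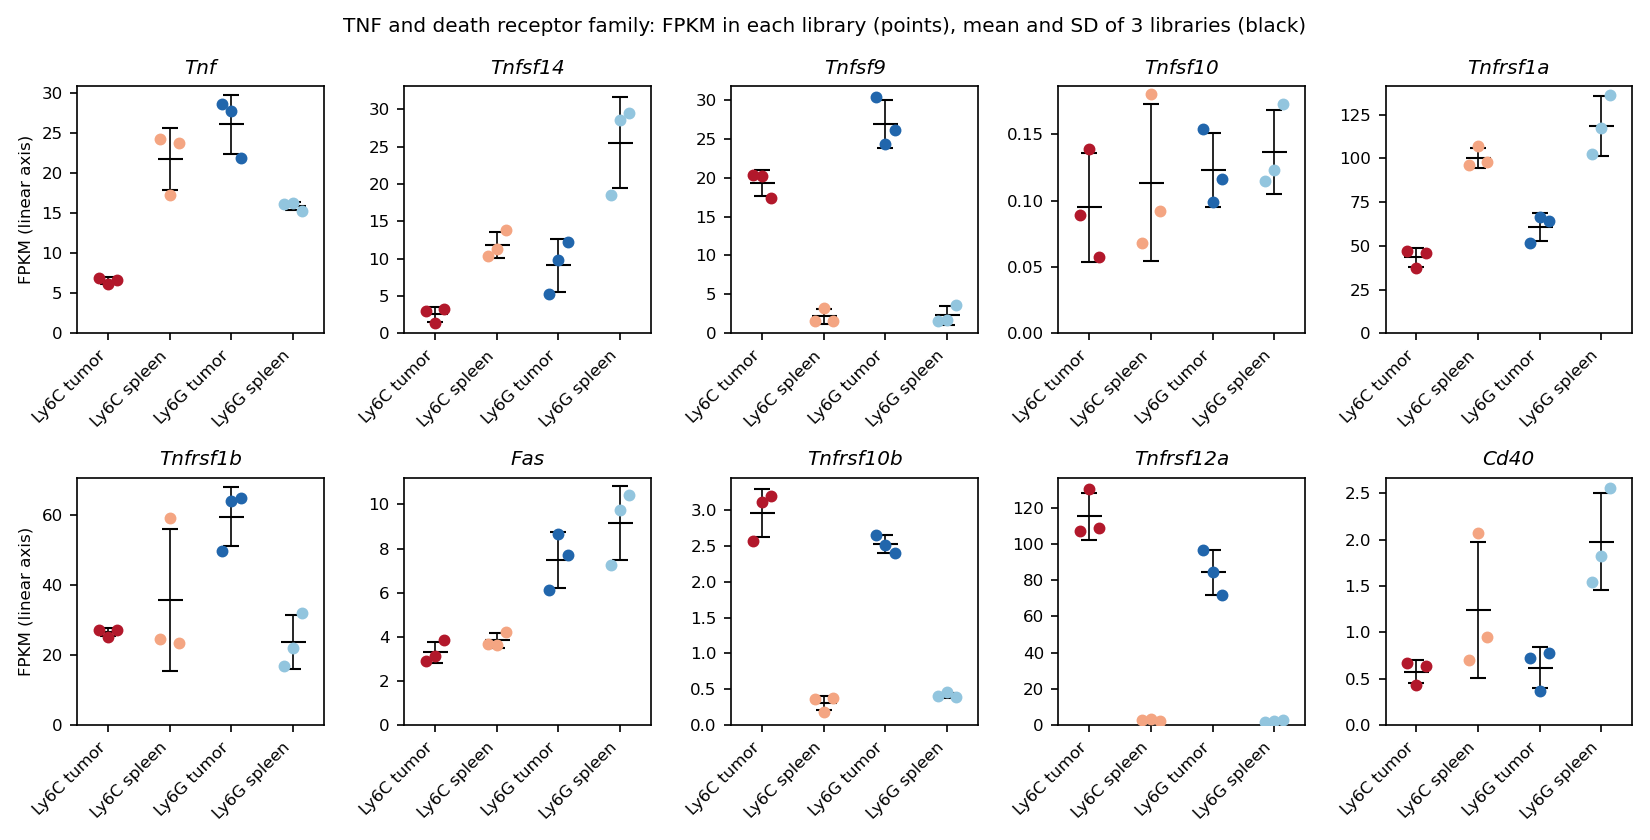
FPKM of the 10 members in each library on linear axes, with a panel per gene, the 4 groups along the horizontal axis, points for libraries, and the mean and SD of 3 libraries in black. Tnfrsf12a, Tnfsf9 and Tnfrsf10b lie high in both tumor groups, Fas follows the Ly6G label, and Tnf is lowest in Ly6C tumor (6.11 to 6.94 FPKM).

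Tnf, the founding ligand of the family, responded to tissue in opposite directions under the Ly6C and Ly6G labels. The gene lies at chr17:35199381-35202007 on the minus strand (GRCm38, GENCODE M21). Its level was 6.94, 6.11 and 6.66 FPKM in Ly6C tumor, against 24.3, 17.25 and 23.7 FPKM in Ly6C spleen. It was 28.6, 27.7 and 21.9 FPKM in Ly6G tumor, against 16.2, 16.2 and 15.3 FPKM in Ly6G spleen. Every Ly6C tumor library was below every Ly6C spleen library, and every Ly6G tumor library was above every Ly6G spleen library. The change was -1.57 ± 0.14 (SE; adjusted p = 9.5e-07) for Ly6C, a mean level 3.31-fold lower in tumor, and 0.67 ± 0.14 (adjusted p = 0.00104) for Ly6G, 1.64-fold higher in tumor. The test of the difference itself, the Ly6C tissue change minus the Ly6G tissue change, gave -2.25 ± 0.20 (adjusted p = 0.000186). Lower and higher members called in this test numbered 2 and 0, beside 15.8% and 6.02% of all genes tested, and with limma 0 members were higher at an unadjusted p under 0.05. Its sign and call held under each of the 22 alternatives, at -1.22 (adjusted p = 0.0461) after rescaling to the pan-leukocyte genes. On that scale Tnf rose in both, by 1.76 in Ly6C tumor and 2.98 in Ly6G tumor, and with median-of-ratios factors the Ly6G rise shrank to 0.15 (adjusted p = 0.437). Within tumor, Tnf was 3.97-fold lower in the Ly6C than in the Ly6G libraries (-1.83 ± 0.14, adjusted p = 0.000214). Within spleen it was 1.37-fold higher in the Ly6C libraries (0.41 ± 0.14, adjusted p = 0.0462), a call lost in 16 of the 22 alternatives, among them leaving out any 1 library but Ly6C spleen replicate 2 or Ly6G tumor replicate 3, with adjusted p up to 0.152 (Ly6C spleen replicate 1). In order of mean level, Ly6C tumor was below Ly6G spleen, then Ly6C spleen, then Ly6G tumor, and only the upper pair overlapped.

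The 250 bases before the RefSeq start of 3 members are shown because these genes set the extremes: Tnf for its opposite responses, Tnfrsf12a for the highest change and Tnfsf14 for the lowest. RefSeq promoter entries (GRCm38.p6) matched 7 of the 10 members. The bases run 5′ to 3′ on the gene's strand and end just before the start, and capitals mark matches to a searched motif. The motifs were TGANTCA (the AP-1 form), TGANNTCA (a CRE-like form), TATAAA and a kappaB consensus. Each was read on both strands, and none of the matches overlapped another. Of 32841 promoters of this length, 6.75% held TGANTCA, 11.9% TGANNTCA, 12.4% TATAAA and 7.25% the kappaB consensus.
Tnf (chr17:35202008-35202257, minus strand): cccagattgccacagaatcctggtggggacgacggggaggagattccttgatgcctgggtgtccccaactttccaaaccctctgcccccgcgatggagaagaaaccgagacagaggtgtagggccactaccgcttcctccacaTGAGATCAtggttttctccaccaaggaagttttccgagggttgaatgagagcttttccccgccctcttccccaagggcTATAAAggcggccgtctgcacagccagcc
Tnfsf14 (chr17:57194182-57194431, minus strand): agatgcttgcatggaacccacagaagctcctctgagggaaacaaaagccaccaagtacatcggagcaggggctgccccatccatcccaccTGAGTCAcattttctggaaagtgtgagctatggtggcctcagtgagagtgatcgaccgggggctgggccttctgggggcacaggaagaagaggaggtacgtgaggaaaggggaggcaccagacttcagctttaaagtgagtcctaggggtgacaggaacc
Tnfrsf12a (chr17:23677450-23677699, minus strand): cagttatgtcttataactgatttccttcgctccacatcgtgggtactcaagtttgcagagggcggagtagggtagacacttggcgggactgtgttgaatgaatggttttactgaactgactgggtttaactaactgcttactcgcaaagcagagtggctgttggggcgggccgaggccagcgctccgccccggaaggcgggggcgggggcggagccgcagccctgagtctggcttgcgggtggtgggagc
The Tnf window held a CRE-like match 107 to 100 bases before the start and a TATAAA match 29 to 24 bases before it. The Tnfsf14 window held the AP-1 form 160 to 154 bases before the start, as did that of Fas at 211 to 205 bases. The Tnfrsf12a window held none of the 4, and no kappaB match lay in the 7 windows.

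Tnfsf14 (LIGHT), a ligand that costimulates T cells and engages the lymphotoxin beta receptor, was lower in tumor under both labels and lower in Ly6C than in Ly6G in both tissues. The gene lies at chr17:57189492-57194177 on the minus strand. Its level was 2.97, 1.35 and 3.29 FPKM in Ly6C tumor against 10.4, 11.3 and 13.8 FPKM in Ly6C spleen. It was 5.30, 9.83 and 12.2 FPKM in Ly6G tumor against 18.6, 28.5 and 29.5 FPKM in Ly6G spleen. Neither pair of tissues overlapped. The change was -1.90 ± 0.30 (adjusted p = 9.69e-05) for Ly6C and -1.43 ± 0.30 (adjusted p = 0.000902) for Ly6G, and turned to 1.10 and 0.87 after rescaling to the pan-leukocyte genes. Ly6C against Ly6G gave -1.50 ± 0.30 in tumor (adjusted p = 0.00995) and -1.03 ± 0.30 in spleen (adjusted p = 0.0222). The first call was lost without both libraries of highest mitochondrial share (adjusted p = 0.0675) and the second in 6 of the 22 alternatives. Among these were leaving out Ly6C spleen replicate 1 or 2 or Ly6G spleen replicate 2 or 3, with adjusted p of 0.0675, 0.0579, 0.0693 and 0.0729 in that order. Both of its receptors passed the expression filter. They were picked after their values were seen. Tnfrsf14 (HVEM) averaged 2.60 FPKM in Ly6C tumor against 17.4 FPKM in Ly6C spleen, and 4.13 FPKM in Ly6G tumor against 14.8 FPKM in Ly6G spleen. It fell by 2.36 ± 0.12 (adjusted p = 6.76e-09) and by 1.62 ± 0.12 (adjusted p = 1.59e-07), but was 0.77 and 0.55 higher in tumor after rescaling to the pan-leukocyte genes. Ltbr averaged 41.9 FPKM in Ly6C tumor against 52.1 FPKM in Ly6C spleen (-0.31 ± 0.15, adjusted p = 0.0726), and 39.7 FPKM in Ly6G tumor against 28.4 FPKM in Ly6G spleen (0.48 ± 0.15, adjusted p = 0.0105). The Ltbr value turned to 3.22 in Ly6C after the pan-leukocyte rescaling and to -0.05 in Ly6G with median-of-ratios factors.

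Tnfsf9 (4-1BB ligand), a costimulatory ligand of antigen-presenting cells, was higher in tumor under both labels. The gene lies at chr17:57105325-57107757 on the plus strand. Its level was 20.3, 20.2 and 17.4 FPKM in Ly6C tumor against 1.65, 3.33 and 1.64 FPKM in Ly6C spleen. It was 30.3, 24.3 and 26.1 FPKM in Ly6G tumor against 1.56, 1.69 and 3.71 FPKM in Ly6G spleen. No tumor library came near a spleen library. Mean levels were 8.75-fold higher in Ly6C tumor (2.70 ± 0.24, adjusted p = 8.74e-07) and 11.6-fold higher in Ly6G tumor (3.12 ± 0.24, adjusted p = 2.85e-07). The difference between those changes was -0.42 (95% interval -1.17 to 0.33, adjusted p = 0.409). The receptor of this ligand, Tnfrsf9 (4-1BB), was likewise higher in tumor, at 6.60, 6.68 and 13.8 FPKM in Ly6C tumor against 0.0454, 0.0205 and 0.0462 FPKM in Ly6C spleen, and at 6.92, 4.37 and 15.4 FPKM in Ly6G tumor against 0.177, 0.239 and 0.487 FPKM in Ly6G spleen. Its change was 3.20 ± 0.35 (adjusted p = 5.05e-06) for Ly6C and 2.77 ± 0.35 (adjusted p = 1.8e-05) for Ly6G. Only the 6 tumor libraries reached 1 FPKM, so Tnfrsf9 passed the filter through the tissue where it was high. The antisense long noncoding RNA Gm11110 overlaps Tnfsf9 and averaged 1.51 FPKM in Ly6C tumor against 0.138 FPKM in Ly6C spleen, and 1.54 FPKM in Ly6G tumor against 0.197 FPKM in Ly6G spleen. The sources used here do not say whether counting used strand, so reads of the pair cannot be told apart. Tnfsf9, Cd70 and Tnfsf14 are consecutive protein-coding genes on chromosome 17, with gaps of 38.2 and 39.7 kb. The outer genes moved in opposite directions per mapped fragment, and both were higher in tumor after the pan-leukocyte rescaling. Cd70, the ligand of CD27, was at 0 in every library but Ly6G tumor replicate 1 and Ly6G spleen replicate 1, where it did not exceed 0.0653 FPKM.

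Tnfsf10 (TRAIL), the ligand of Tnfrsf10b, was near 0 throughout and was not tested. Its level ranged from 0.0575 to 0.139 FPKM in Ly6C tumor, from 0.0678 to 0.180 FPKM in Ly6C spleen, from 0.0989 to 0.154 FPKM in Ly6G tumor and from 0.115 to 0.173 FPKM in Ly6G spleen. All neighbouring groups overlapped.

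Tnfrsf1a, the death domain receptor of TNF that most cells carry, was lower in tumor under both labels, except after rescaling to the pan-leukocyte genes, where its change was 2.36 for Ly6C and 1.49 for Ly6G. Its locus is chr6:125349362-125362484, and its level was 47.1, 37.4 and 45.8 FPKM in Ly6C tumor against 96.2, 107 and 98.2 FPKM in Ly6C spleen. It was 51.4, 66.5 and 64.5 FPKM in Ly6G tumor against 102, 117 and 136 FPKM in Ly6G spleen. Tumor and spleen did not overlap under either label. Means were 2.31-fold lower in Ly6C tumor (-1.20 ± 0.15, adjusted p = 1.31e-05) and 1.95-fold lower in Ly6G tumor (-0.95 ± 0.15, adjusted p = 9.06e-05). It was the most abundant receptor of the set in spleen.

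Tnfrsf1b, the TNF receptor without a death domain, rose in Ly6G tumor. Its locus is chr4:145213463-145246870, and its level was 49.7, 64.0 and 64.9 FPKM in Ly6G tumor against 16.8, 22 and 31.9 FPKM in Ly6G spleen, with no overlap. It was 27.1, 25.1 and 27.1 FPKM in Ly6C tumor against 24.5, 59.1 and 23.4 FPKM in Ly6C spleen, and the high spleen value is that of replicate 2, which also stood apart in monocyte markers. The Ly6G change was 1.34 ± 0.31 (adjusted p = 0.00213), 2.52-fold. The Ly6C change was -0.28 ± 0.31 (adjusted p = 0.422), and 0.14 without Ly6C spleen replicate 2 (adjusted p = 0.578). The difference between the changes was -1.62 ± 0.44 (adjusted p = 0.0239), and -1.20 without that library (adjusted p = 0.0169). This call was lost in 7 of the 22 alternatives: without the expression filter, after the pan-leukocyte rescaling (-0.50, adjusted p = 0.374), without Ly6C tumor replicate 2, Ly6G spleen replicate 1, Ly6G tumor replicate 2 or Ly6G tumor replicate 3 (adjusted p 0.0505 to 0.0564), and without both libraries of highest mitochondrial share (adjusted p = 0.0975). In Ly6G tumor the mean levels of the TNF receptors were close, 59.5 FPKM for Tnfrsf1b and 60.8 FPKM for Tnfrsf1a, whereas in Ly6G spleen they were 23.6 FPKM and 119 FPKM.

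Fas, the death receptor of Fas ligand, differed between the labels in both tissues. Its locus is chr19:34290666-34327772, and its level was 2.92, 3.14 and 3.83 FPKM in Ly6C tumor against 6.13, 8.64 and 7.72 FPKM in Ly6G tumor. It was 3.66, 3.64 and 4.23 FPKM in Ly6C spleen against 7.26, 9.74 and 10.4 FPKM in Ly6G spleen. Ly6C libraries were below Ly6G libraries in both tissues without overlap, whereas tumor and spleen overlapped under each label. A noncoding RNA gene, Gm27818, lies within Fas on the same strand. It averaged 0.159 FPKM in Ly6C tumor and 0.615 FPKM in Ly6G tumor, and was at 0 in every spleen library. Its part in the Fas values was not tested. The Ly6C minus Ly6G difference was -0.98 ± 0.15 in tumor (adjusted p = 0.00339) and -1.06 ± 0.15 in spleen (adjusted p = 0.000619). Both calls were lost after rescaling to the pan-leukocyte genes, at -0.23 (adjusted p = 0.498) and -0.96 (adjusted p = 0.0897). Between tissues the change was -0.18 (95% interval -0.51 to 0.16) for Ly6C and -0.25 (-0.59 to 0.08) for Ly6G. Those values became called falls with median-of-ratios factors, at -0.43 and -0.74, and with quantile normalization, and called rises after the pan-leukocyte rescaling, at 2.64 and 1.90. Fas ligand (Fasl) did not reach the expression filter.

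Tnfrsf10b, the mouse TRAIL receptor with a death domain, was higher in tumor under both labels. Its locus is chr14:69767472-69784411, and its level was 2.57, 3.12 and 3.20 FPKM in Ly6C tumor against 0.357, 0.187 and 0.373 FPKM in Ly6C spleen. It was 2.66, 2.52 and 2.41 FPKM in Ly6G tumor against 0.400, 0.456 and 0.392 FPKM in Ly6G spleen. The 6 tumor libraries alone reached 1 FPKM, so the gene could pass the filter only through the group where it was high. The change was 1.60 ± 0.10 (adjusted p = 4.24e-08) for Ly6C and 1.32 ± 0.10 (adjusted p = 2.47e-07) for Ly6G, on a scale that compresses levels this low. Mean levels were 9.69-fold and 6.08-fold higher in tumor.

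Tnfrsf12a (Fn14), the receptor of TWEAK and a gene known to be induced in injured and growing tissue, showed the highest change of the set. The gene lies at chr17:23675445-23677468 on the minus strand. Its level was 107, 130 and 109 FPKM in Ly6C tumor against 2.65, 3.41 and 1.97 FPKM in Ly6C spleen. It was 96.7, 84.8 and 71.7 FPKM in Ly6G tumor against 1.88, 2.17 and 2.63 FPKM in Ly6G spleen. Every tumor library exceeded every spleen library many times over. Means were 43.1-fold higher in Ly6C tumor (5.0 ± 0.17, adjusted p = 2.42e-10) and 37.9-fold higher in Ly6G tumor (4.72 ± 0.17, adjusted p = 4.29e-10). In the same libraries Krt8, a keratin of simple epithelia, averaged 670 FPKM in Ly6C tumor against 0.0694 FPKM in Ly6C spleen, and 483 FPKM in Ly6G tumor against 0.136 FPKM in Ly6G spleen, and its part in the result was not tested. The ligand, Tnfsf12 (TWEAK), rose too, to 22.1, 19.1 and 17.1 FPKM in Ly6C tumor against 3.57, 8.57 and 1.67 FPKM in Ly6C spleen. Its level was 17.0, 16.9 and 16.4 FPKM in Ly6G tumor against 1.63, 0.773 and 1.59 FPKM in Ly6G spleen. The highest spleen value is again that of Ly6C spleen replicate 2. The change of Tnfsf12 was 2.05 ± 0.35 (adjusted p = 0.000197) for Ly6C and 2.95 ± 0.35 (adjusted p = 1.03e-05) for Ly6G.

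Cd40, the receptor through which helper T cells license antigen-presenting cells, was low, and lower in Ly6G tumor than in Ly6G spleen. Its locus is chr2:165055627-165072948, and its level was 0.719, 0.362 and 0.776 FPKM in Ly6G tumor against 1.54, 1.82 and 2.56 FPKM in Ly6G spleen, without overlap. It was 0.665, 0.430 and 0.636 FPKM in Ly6C tumor against 0.706, 2.07 and 0.947 FPKM in Ly6C spleen, where replicate 2 was again the highest. The change was -0.87 ± 0.21 (adjusted p = 0.00228) for Ly6G, and 0.39 (adjusted p = 0.12) after the pan-leukocyte rescaling. The Ly6C value was -0.46 ± 0.21 (adjusted p = 0.0601), or -0.21 without Ly6C spleen replicate 2 (adjusted p = 0.269). It was called lower on a TPM scale (-0.76), with median-of-ratios factors (-0.58), with quantile normalization (-0.78) and without Ly6C spleen replicate 1 (-0.64, adjusted p = 0.0188), and called higher after the pan-leukocyte rescaling (1.23). Only 4 libraries, all of spleen, reached 1 FPKM, so the gene passed the filter through the tissue where it was high. Markers of B cells, which carry CD40, were higher in the same spleen libraries (summed levels above), and their part in the result was not tested.

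**Figure D2:**
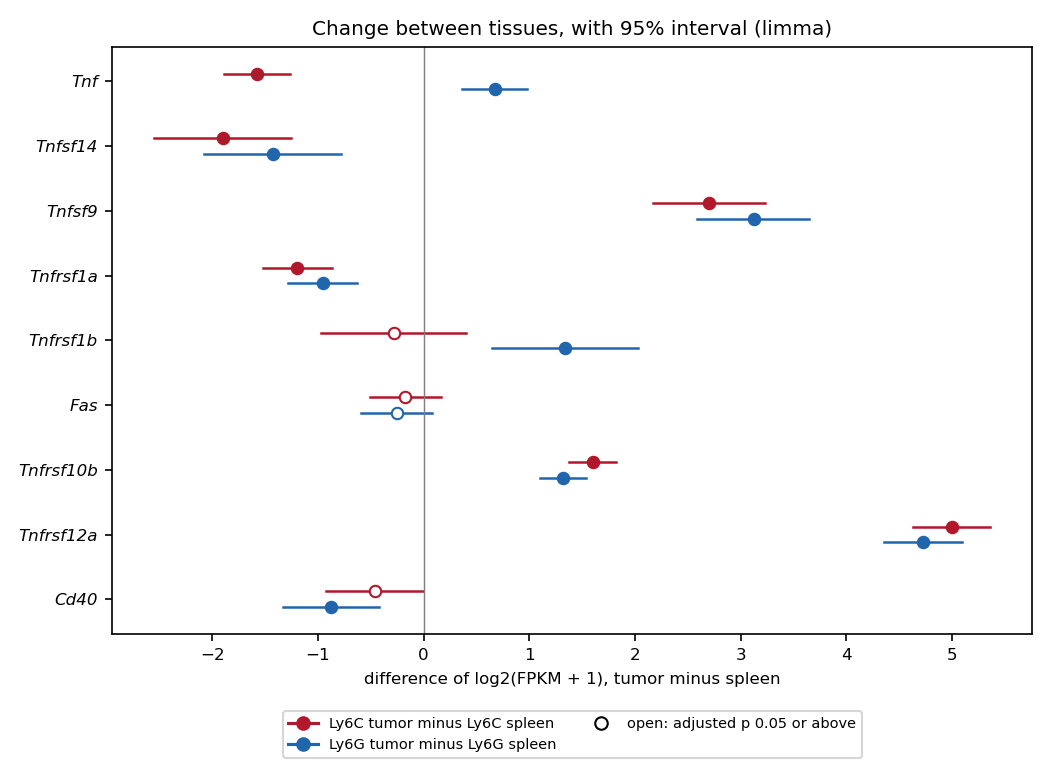
Tumor minus spleen difference of log2(FPKM + 1) for the 9 tested members, with 95% intervals, for Ly6C (red) and Ly6G (blue); filled points had an adjusted p under 0.05. Per mapped fragment Tnf lies at -1.57 for Ly6C, which turns positive after the pan-leukocyte rescaling, and at 0.67 for Ly6G, and Tnfrsf12a lies farthest right, at 5.0 and 4.72.

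Fewer members were called between the labels than between the tissues. Within tumor, 4 of the 9 tested members were called lower in Ly6C than in Ly6G (Tnf, Tnfsf14, Tnfrsf1b and Fas) and 0 higher, beside 8.70% and 5.80% of all genes tested. Within spleen, 2 were called lower (Tnfsf14 and Fas) and 1 higher (Tnf), beside 8.59% and 22.1%. The median difference of the members was -0.47 in tumor and -0.12 in spleen, against 0.04 and 0.11 for all genes tested. After the pan-leukocyte rescaling 2 members were called higher and 2 lower in tumor, beside 8572 and 320 of the 13610 genes tested. The median difference in tumor was then 0.45 for the members and 0.88 for all genes tested. Without both libraries of highest mitochondrial share 2 members were called in tumor, and the Tnfrsf1b call (-1.13 ± 0.31, adjusted p = 0.0365) was lost in 9 of the 22 alternatives, leaving out any 1 tumor library among them (adjusted p 0.053 to 0.111). Tnfrsf12a was 107 to 130 FPKM in Ly6C tumor against 71.7 to 96.7 FPKM in Ly6G tumor, a difference of 0.45 ± 0.17 that was not called (adjusted p = 0.0878) and was the 1 higher member with an unadjusted limma p under 0.05.

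**Figure D3:**
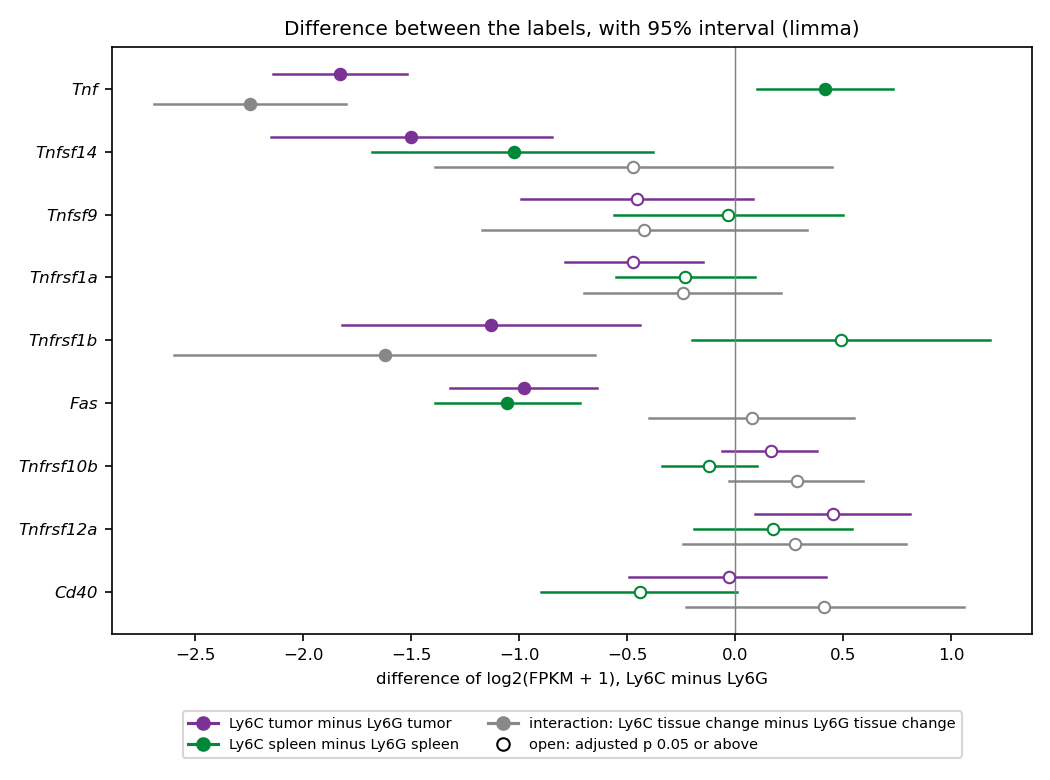
Ly6C minus Ly6G difference of log2(FPKM + 1) for the 9 tested members in tumor (purple) and spleen (green), and the difference between the tissue changes (grey), each with a 95% interval; filled points had an adjusted p under 0.05. Tnf has the lowest values in tumor (-1.83) and for the difference between tissue changes (-2.25), and Fas has similar values in tumor (-0.98) and spleen (-1.06).

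The rest of the pathway was read through 77 genes in 4 lists. Of 14 other ligands 5 were tested. Under each label 1 was called higher (Tnfsf12) and 4 lower in tumor, with a median change of -1.64 for Ly6C and -1.45 for Ly6G. Lta, Tnfsf13 and Tnfsf13b reached 1 FPKM in spleen libraries alone, so the filter partly fixed these counts and medians. Among all genes tested 46.2% were called higher and 30.5% lower for Ly6C, and 51.5% and 24.7% for Ly6G. After the pan-leukocyte rescaling 1 was called higher and 1 lower for Ly6C, and 1 higher and 2 lower for Ly6G. On that scale 12280 of the 13610 genes tested were called higher and 542 lower for Ly6C, and 11977 and 638 for Ly6G. Ltb (lymphotoxin beta) fell most, to 2.53, 1.13 and 2.34 FPKM in Ly6C tumor against 49.4, 31.8 and 43.5 FPKM in Ly6C spleen, and to 6.59, 7.99 and 11.5 FPKM in Ly6G tumor against 57.7, 64.5 and 120 FPKM in Ly6G spleen. Its changes of -3.84 ± 0.30 (adjusted p = 2.64e-07) and -3.03 ± 0.30 (adjusted p = 2.23e-06) kept their sign and call under each of the 22 alternatives. Lta, Tnf and Ltb are neighbours, with Lta ending 1.16 kb and Ltb 3.06 kb from Tnf. Lta, picked after its values were seen, averaged 0.0718 FPKM in Ly6C tumor against 1.49 FPKM in Ly6C spleen, and 0.12 FPKM in Ly6G tumor against 3.88 FPKM in Ly6G spleen, and it passed the filter through spleen libraries alone. In Ly6G tumor both neighbours were lower while Tnf was higher, a rise not called with median-of-ratios factors. Markers of B cells were also lower in the tumor libraries (summed levels above), and their part in the Ltb and Lta results was not tested.

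Of 22 other receptors 12 were tested. For Ly6C, 2 were called higher and 8 lower in tumor (median -1.41), beside 46.2% and 30.5% of all genes tested. For Ly6G, 4 were called higher and 8 lower (median -1.22), beside 51.5% and 24.7%. The filter partly fixed these counts and medians. Tnfrsf9 and Tnfrsf23 reached 1 FPKM in tumor libraries alone, and Tnfrsf26 in Ly6G tumor libraries alone. Cd27, Tnfrsf13b and Tnfrsf13c reached it in spleen libraries alone. After the pan-leukocyte rescaling 7 were called higher and 3 lower for Ly6C, beside 12280 and 542 of the 13610 genes tested. The counts for Ly6G were then 5 higher and 3 lower, beside 11977 and 638. Tnfrsf9, described above with the limit of its filter, had the highest change. Tnfrsf21 (DR6), a receptor with a death domain, fell most, to 2.90, 1.10 and 2.46 FPKM in Ly6C tumor against 81.9, 90.2 and 85.7 FPKM in Ly6C spleen, and to 2.93, 2.78 and 6.05 FPKM in Ly6G tumor against 44.9, 45.4 and 33.9 FPKM in Ly6G spleen. The change was -4.83 ± 0.26 (adjusted p = 1.37e-08) for Ly6C and -3.16 ± 0.26 (adjusted p = 5.21e-07) for Ly6G, and both kept sign and call under each of the 22 alternatives.

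All 31 signalling genes, adaptors, kinases, proteases and ubiquitin ligases downstream of the receptors, were tested. For Ly6C, 5 were called higher and 16 lower in tumor (median -0.36), beside 46.2% and 30.5% of all genes tested. For Ly6G, 8 were called higher and 15 lower (median -0.39), beside 51.5% and 24.7%. After the pan-leukocyte rescaling 30 were called higher for Ly6C and 29 for Ly6G, and 1 lower in each. Most genes were called higher on that scale, 12280 of the 13610 tested for Ly6C and 11977 for Ly6G. Mlkl, which carries out necroptosis downstream of Ripk3, was 13.2, 11.5 and 13.03 FPKM in Ly6G tumor against 3.01, 2.34 and 2.22 FPKM in Ly6G spleen. Its change was 1.95 ± 0.15 (adjusted p = 2.35e-07). Ripk3 itself, picked after its values were seen, was lower in tumor per mapped fragment. It averaged 3.67 FPKM in Ly6G tumor against 8.28 FPKM in Ly6G spleen, and 3.07 FPKM in Ly6C tumor against 18.1 FPKM in Ly6C spleen.

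Of 10 genes known to be induced by TNF through NF-kappaB, 9 were tested. In Ly6C tumor 6 were called higher and 0 lower (median 3.03), and in Ly6G tumor 8 higher and 1 lower (median 2.68). Among all genes tested 46.2% and 51.5% were called higher in these comparisons, and 30.5% and 24.7% lower. The other 3 genes of the list were not called in Ly6C. Beside the count of 0 lower, limma gave 0 genes of the list an unadjusted p under 0.05 in that direction, but Vcam1 was called lower in Ly6C tumor with median-of-ratios factors (-0.76, adjusted p = 0.01) and higher after the pan-leukocyte rescaling (2.64). Ccl2, a chemokine that attracts monocytes, was 333, 426 and 322 FPKM in Ly6C tumor against 5.37, 9.91 and 4.51 FPKM in Ly6C spleen. It was 316, 242 and 224 FPKM in Ly6G tumor against 2.63, 3.91 and 1.76 FPKM in Ly6G spleen. The changes were 5.63 ± 0.27 (adjusted p = 4.94e-09) and 6.15 ± 0.27 (adjusted p = 2.63e-09). Tnfaip3 (A20), the feedback inhibitor of TNF signalling, was picked after its values were seen. It averaged 76.2 ± 10.8 FPKM in Ly6C tumor against 7.47 ± 1.76 FPKM in Ly6C spleen, and 148 ± 36.7 FPKM in Ly6G tumor against 3.80 ± 1.88 FPKM in Ly6G spleen (SD, n = 3 each). Sod2, a mitochondrial superoxide dismutase, had the smallest called rise of the list in Ly6C, 1.78 ± 0.13 (adjusted p = 1.47e-07), with means of 30.2 FPKM in Ly6C tumor against 8.17 FPKM in Ly6C spleen. Vcam1, an adhesion molecule best known from endothelium, was 4.95, 3.76 and 3.54 FPKM in Ly6G tumor against 27.3, 14.7 and 30.3 FPKM in Ly6G spleen, a change of -2.25 ± 0.26 (adjusted p = 7.45e-06) that was -0.03 after the pan-leukocyte rescaling (adjusted p = 0.934).

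**Figure D4:**
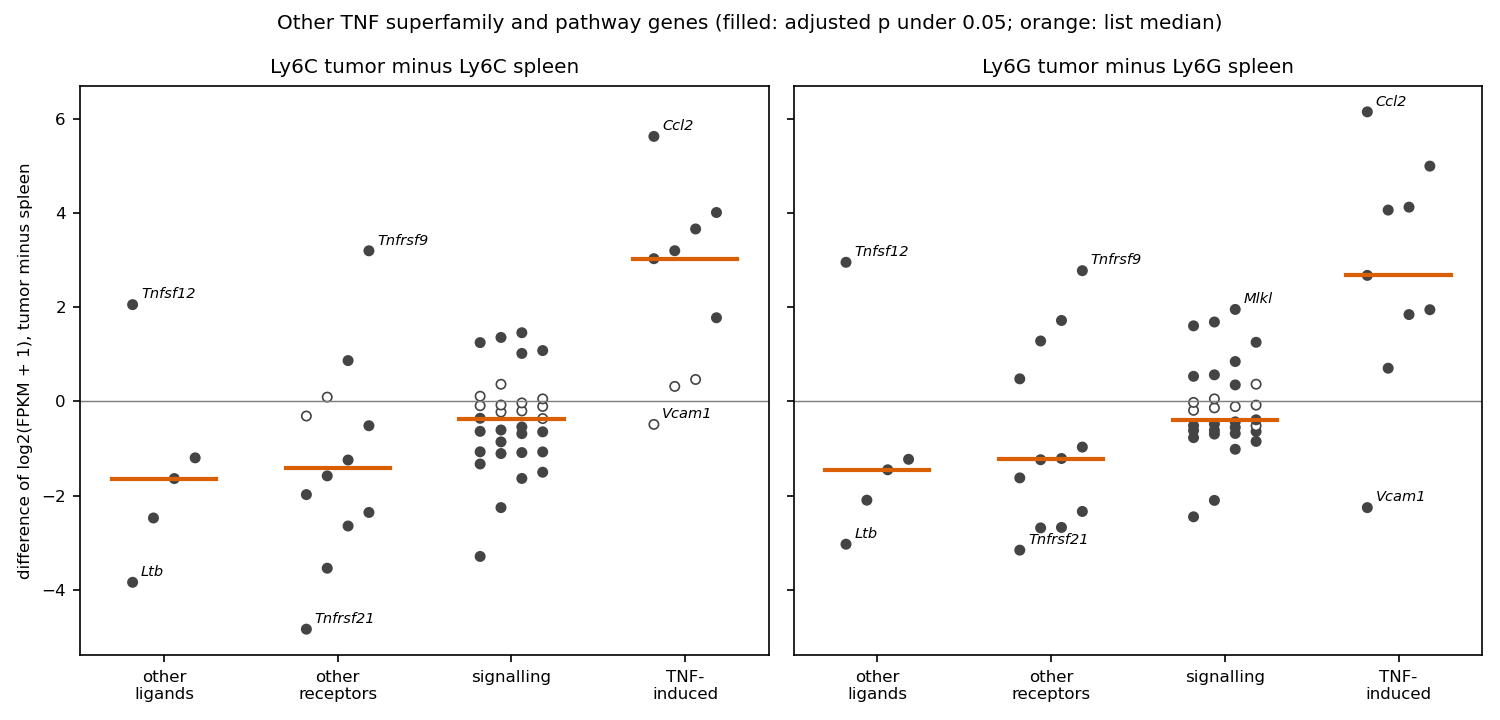
Tumor minus spleen difference of log2(FPKM + 1) for the tested genes of the 4 pathway lists, for Ly6C (left) and Ly6G (right). Filled points had an adjusted p under 0.05, and orange bars are list medians. The lowest and highest gene of each list are named, caspase genes excepted. The TNF-induced genes have medians of 3.03 and 2.68, and the other ligands medians of -1.64 and -1.45 per mapped fragment. Some genes of the other ligand and other receptor lists reached 1 FPKM in 1 tissue alone.

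**Figure D5:**
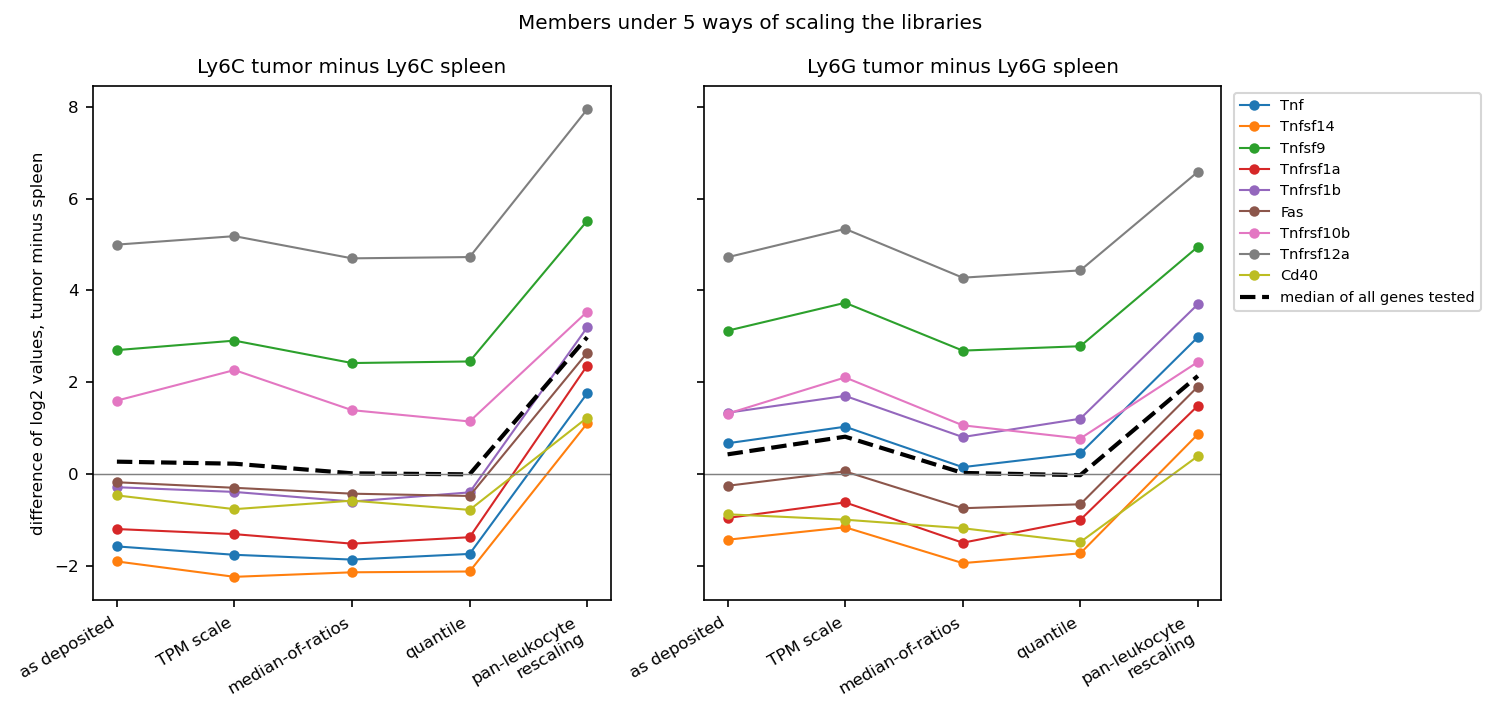
Tumor minus spleen difference of log2 values for the 9 tested members under 5 scalings of the libraries, for Ly6C (left) and Ly6G (right); the dashed line is the median of all genes tested. After the pan-leukocyte rescaling that median is 2.98 for Ly6C and 2.14 for Ly6G, and Tnf for Ly6C turns from -1.57 to 1.76, which lies below the median.

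For each tested member, the gene with the most similar profile was the one with the smallest root mean square difference of centred log2 values over the 12 libraries. For the ligands this was Jdp2 for Tnf (0.321), Trpm2 for Tnfsf14 (0.195) and Cxcl10 for Tnfsf9 (0.178). For the receptors with a death domain it was Mybpc3 for Tnfrsf1a (0.0831), Tcaf1 for Tnfrsf10b (0.0813) and Mpzl3 for Fas (0.142). For the other receptors it was Mir8101 for Tnfrsf1b (0.277), Rasgef1b for Cd40 (0.113) and Gm364 for Tnfrsf12a (0.184). Among the members, Tnf and Tnfrsf1b had the largest distances to their nearest profile. The SD of the member's own profile was 0.747 for Tnf, 0.652 for Tnfrsf1b and 2.55 for Tnfrsf12a.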

How the data were processed

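Total RNA from 12 mouse samples had been sequenced as paired-end libraries, per the labels. Alignment and counting tools listed in the submitters' processing notes are HISAT2 2.0.5 and featureCounts 1.5.0-p3, beside the build GRCm38. The authors deposited FPKM per gene and library, and the sources used here do not give the tool that made them, the annotation or any strand setting. Counts could not be recovered (32.3% to 37.0% of low values lay within 0.05 of a whole step), so depth is unknown and counting error has no interval. Total FPKM was 331681 to 449309 per library. The 570 entries of unnamed loci (0.463% to 1.04% of a library's FPKM) were left out, and symbols and coordinates came from GENCODE M21.

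A gene was tested if 3 or more libraries reached 1 FPKM (13610 genes). A model of 4 group means on log2(FPKM + 1) was fitted in limma 3.58.1 (R 4.3.3, variance trend, 8 residual and 3.4 prior degrees of freedom), two-sided, with Benjamini-Hochberg adjustment over all genes tested. It gave 5 comparisons: tumor against spleen per label, Ly6C against Ly6G per tissue, and the difference of the tissue changes. The model was tested on simulated data.

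The members, lists and pan-leukocyte genes were chosen with earlier results of these data known. Tnfrsf14, Ltbr, Lta, Cd70, Tnfaip3 and Ripk3 were picked after their values were seen. Other pathway genes are named only for how they passed the expression filter. Named by rule were the members and the closest profile to each. The rule also named the called gene of highest and lowest change of each pathway list per tissue comparison. Some genes that this rule names are not reported here. Alternatives were other pseudocounts, filters and scalings, the replicate number as a block and leaving out libraries.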

Additional observations from a re-analysis of the deposited data

Results flagged for a closer look

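Both results below are differences between the labels in the tissue change, tested in the limma fit as the Ly6C change minus the Ly6G change. For Tnf it was -2.25 (adjusted p = 0.000186): all 3 Ly6C tumor libraries lay below the Ly6C spleen libraries and all 3 Ly6G tumor libraries above the Ly6G spleen libraries. The adjusted p reached at most 0.00107 when any 1 library was left out. For Tnfrsf1b it was -1.62 (adjusted p = 0.0239): all 3 Ly6G tumor libraries lay above the Ly6G spleen libraries, and the Ly6C tissues overlapped. The pan-leukocyte mean, 8.39 FPKM in Ly6C tumor against 98.6 FPKM in Ly6C spleen and 15.8 FPKM in Ly6G tumor against 85.7 FPKM in Ly6G spleen, moved unequally as well. After rescaling to it, the values were -1.22 (adjusted p = 0.0461) for Tnf and -0.50 (adjusted p = 0.374) for Tnfrsf1b.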

How the results depend on the processing

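Of 23 called member results, 9 kept call and direction under every alternative run for them: Tnfsf9, Tnfrsf10b and Tnfrsf12a in both tissue comparisons, Tnfrsf1b in Ly6G tumor against spleen, Tnf in Ly6C against Ly6G tumor, and the Tnf difference between tissue changes. Tnfrsf10b and Cd40 did not pass the filter of 5 FPKM and gave no value there. After the pan-leukocyte rescaling, Ly6C tumor minus spleen turned to 1.76 for Tnf, 1.10 for Tnfsf14, 2.36 for Tnfrsf1a, 2.64 for Fas, 3.19 for Tnfrsf1b, 1.23 for Cd40, 2.64 for Vcam1, 0.77 for Tnfrsf14 and 3.22 for Ltbr. Ly6G tumor minus spleen turned to 0.87 for Tnfsf14, 1.49 for Tnfrsf1a, 1.90 for Fas, 0.39 for Cd40 and 0.55 for Tnfrsf14. Ly6C minus Ly6G in tumor turned to 0.45 for Tnfsf9, 0.45 for Tnfrsf1a and 0.52 for Cd40, and the difference of tissue changes to 0.24 for Tnfsf14, 0.56 for Tnfsf9 and 0.87 for Tnfrsf1a. On a TPM scale signs turned for Fas in Ly6G tumor against spleen (0.0591), for Tnfsf9 (0.24) and Tnfrsf1a (0.0916) in Ly6C against Ly6G spleen, and for the difference of tissue changes of Fas (-0.36) and Tnfrsf12a (-0.16). With median-of-ratios factors they turned for Tnfrsf12a in Ly6C against Ly6G spleen (-0.0152) and Ltbr in Ly6G tumor against spleen (-0.0506), and with quantile normalization for Cd40 in Ly6C against Ly6G tumor (0.13). None of the values that turned outside the pan-leukocyte rescaling was called among the members. Leaving out 1 library turned Tnfsf9 in spleen (0.0855, 0.0861 and 0.249, in a range of -0.2692 to 0.249), Tnfrsf1b in Ly6C tumor against spleen (0.1382 without Ly6C spleen replicate 2, in a range of -0.5115 to 0.1382), Cd40 in tumor (0.0168, 0.0378 and 0.0405, in a range of -0.151 to 0.0405) and the Fas difference of tissue changes (-0.0112, -0.017 and -0.0443, in a range of -0.0443 to 0.2184). Leaving out both libraries of highest mitochondrial share, an alternative chosen after seeing the data, turned Cd40 in tumor to 0.0122. The cause was not tested.

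Without the expression filter, 1 member was called in Ly6C against Ly6G spleen, against 3, and 1 for the difference of tissue changes, against 2. With the filter of 5 FPKM, which tests fewer genes, 6694 genes were called for Ly6C tumor against spleen and 6648 for Ly6G, against 10443 and 10367. On the TPM scale 4931 genes were called for the difference of tissue changes, against 2972. After the pan-leukocyte rescaling 376 genes, 1 member and 2 other pathway genes were called in Ly6C against Ly6G spleen (4171, 3 and 20 otherwise), 8892 genes and 28 pathway genes in Ly6C against Ly6G tumor (1974 and 13), and 6 pathway genes for the difference of tissue changes (19). Without both libraries of highest mitochondrial share 260 genes, 2 members and 3 pathway genes were called in Ly6C against Ly6G tumor, and 1417, 1 and 6 for the difference of tissue changes. Leaving out 1 library gave 746 to 2618 genes, 3 to 5 members and 8 to 16 pathway genes in Ly6C against Ly6G tumor (746 without Ly6G tumor replicate 3, 750 without Ly6C tumor replicate 3, 763 without Ly6C tumor replicate 2, 1018 without Ly6G tumor replicate 2 and 1117 without Ly6C tumor replicate 1). It gave 1 to 3 members in Ly6C against Ly6G spleen, and 1 to 2 members and 12 to 20 pathway genes for the difference of tissue changes. The share of higher among called genes, over 5 scalings, was 50% to 95.8% for Ly6C tumor against spleen (60.2% as reported), 49.7% to 94.9% for Ly6G (67.6%), 5.08% to 96.4% in tumor between labels (40%), 29.3% to 90.6% in spleen (72%) and 5.17% to 97.9% for the difference of tissue changes (27.6%).

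Replicate numbers gave no sign of pairing the libraries. The correlation of deviations was -0.36 to 0.279 (median 0.0203) over 18 same-numbered pairs. Over 36 pairs of other numbers it was -0.393 to 0.427 (median -0.0235). With 3 libraries per group this cannot exclude a pairing. With the replicate number as a block, the members called were 6 and 8 between tissues, 4 in tumor and 2 in spleen between labels, and 2 for the difference of tissue changes, and among members the block ended only the Tnf call in spleen (adjusted p = 0.0553). Depth is unknown, so no counting interval can be given for members near 1 FPKM (Tnfsf10, Cd40 and Tnfrsf10b).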
